A study of Mus musculus with 8 samples.

Results

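The granins and the genes that process prohormones were followed in RNA from hippocampal tissue of mice with a conditional knockout of Brpf1 (cKO) and of wild-type (WT) mice. The 10 genes were chosen by name, as the rows of the deposited table of 34094 genes with the symbols Chga, Chgb, Scg2, Scg3, Vgf, Pcsk1, Pcsk2, Cpe, Scg5 and Pcsk1n, and each symbol matched 1 row. The table holds 4 cKO and 4 WT libraries from C57BL/6 mice of 2 months, made with a stranded mRNA kit after Trizol extraction. The tissue label and the protocol name the CA1 field, while all titles name hippocampus tissue. The titles of the cKO libraries also speak of a Brpf1 knockdown, and the series title speaks of a loss of Brpf1 specific to the hippocampus. The Cre driver, the removed exons and the animal behind each library were left unstated in the labels, and a protocol speaks of 3 pairs of mice. With the source animals unknown, p-values weigh only library-to-library spread, part of which can be technical.

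Granins are acidic proteins that condense in the trans-Golgi network and fill the dense-core vesicles from which neurons and endocrine cells release peptides. Prohormones sorted into the same vesicles are cut by the convertases of Pcsk1 and Pcsk2 after pairs of basic residues, and the carboxypeptidase of Cpe then trims those residues from the new ends. Scg5 encodes the chaperone that PCSK2 needs to become active, and Pcsk1n encodes proSAAS, an inhibitor of PCSK1. In the hippocampus these proteins serve the release of neuropeptides and of BDNF, and Vgf and Scg2 are known to respond to neuronal activity.

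The kind of substrate that this machinery cuts can be read in the coding sequences of the granins themselves. In the stretches below, from GENCODE M21 transcripts, capitals mark pairs of codons for basic residues and lower case marks the peptide between them. The Scg2 stretch encodes secretoneurin (codons 184 to 216). The Chga stretch encodes a peptide from the C-terminal part of chromogranin A (codons 358 to 371 of 463).
Scg2 coding stretch: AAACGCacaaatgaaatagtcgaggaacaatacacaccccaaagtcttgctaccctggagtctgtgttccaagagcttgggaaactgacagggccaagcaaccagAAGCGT
Chga coding stretch: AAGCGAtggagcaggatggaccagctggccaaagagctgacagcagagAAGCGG
The coding sequence of Scg2 holds 9 runs of adjacent basic codons, that of Chga 8 and that of Chgb 18. Per 100 codons this is 1.46 for Scg2, 1.73 for Chga and 2.66 for Chgb, beside a median of 1.19 over 21507 mouse genes. These values exceed those of 63.8%, 74.6% and 92.9% of genes. Scg3 had 1.49, Vgf 1.62, Pcsk1 1.59, Pcsk2 1.73, Cpe 1.05, Scg5 1.89 and Pcsk1n 1.94, so such runs are not particular to the granins. Codons for acidic residues made up 21.8% of Chga, 23.2% of Chgb, 20.3% of Vgf, 19.7% of Scg3 and 19.1% of Scg2, beside a median of 11.2%. Scg2, the least acidic of these 5 granins, had a higher acidic share than 97.0% of genes. The other members were less acidic, with 12.7% for Pcsk1, 12.6% for Pcsk2, 14.1% for Cpe, 14.6% for Scg5 and 13.2% for Pcsk1n.

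Promoters of several members carry the cAMP response element, the site of the activity-regulated factor CREB. RefSeq promoter sequences (GRCm38.p6, 250 bases before to 50 after the start) were at hand for 8 of the 10 genes, all but Vgf and Cpe. The palindrome TGACGTCA was found in those of Chgb, Scg2 and Pcsk1, and in 1.79% of all 32851 promoters. The shorter TGACGT, searched on both strands and contained in the palindrome, was found in 5 of the 8 (also in Chga and Scg5) and in 7.51% of all promoters. The TATA motif TATAAA, also searched on both strands, was found in 1 of the 8, that of Chga, and in 13.6% of all promoters. Members were counted as genes with a match in any of their promoters, while the percentages are over single promoters, so these are not like for like. The windows below run 5′ to 3′ on the strand of the gene, with the match in capitals.
Chgb promoter window: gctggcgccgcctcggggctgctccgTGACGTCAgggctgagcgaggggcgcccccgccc
Scg2 promoter window: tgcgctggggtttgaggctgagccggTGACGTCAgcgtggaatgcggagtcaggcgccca
Pcsk1 promoter window: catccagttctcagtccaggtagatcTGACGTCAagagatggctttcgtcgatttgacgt
Chga promoter window: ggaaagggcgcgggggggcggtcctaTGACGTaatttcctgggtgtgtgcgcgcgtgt
The Chgb window lies at chr2:132781544-132781603 (plus strand) and its match begins 72 bases before the start. The Scg2 window lies at chr1:79440061-79440120 (minus strand), with the match 68 bases before the start. The Pcsk1 window lies at chr13:75089753-75089812 (plus strand), with the match 78 bases before the start and a further TGACGT at its end, printed in lower case. The Chga window lies at chr12:102554871-102554928 (plus strand), with the match 44 bases before the start. Scg5 holds TGACGT 175 bases before the start and, on the other strand, 39 bases after it. A match describes the letters only, and binding of any factor was not measured.

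Reads on genes ranged from 40330226 to 46559795 in the cKO libraries and from 42346644 to 49897832 in the WT libraries. Expression is given as normalized reads, in which the size factor of each library has been divided out, and fold changes are cKO over WT on the log2(normalized reads + 1) scale. Brpf1 itself had 945 ± 87.3 normalized reads in cKO libraries and 1415 ± 55.1 in WT libraries (SD, n = 4 each), with no overlap between the groups. Its limma adjusted p was 0.132, above the threshold of 0.05. As a check of the CA1 label, 8 CA1 markers summed to 24029 to 30609 normalized reads in cKO libraries and 20317 to 29216 in WT libraries. The 9 markers of dentate granule cells were also detected, with sums of 28000 to 34806 in cKO libraries and 30561 to 34679 in WT libraries. So were 8 markers of CA3 and CA2, with sums of 19049 to 22432 in cKO libraries and 18515 to 21781 in WT libraries. Markers of other hippocampal fields were thus present beside those of CA1.

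None of the 10 genes passed limma's test over all genes (0 of 10, adjusted p under 0.05), and 9 of the 10 had a higher mean log2 value in cKO than in WT libraries. The test called 5 of 26135 genes, 0.0191%, of which 0.00765% were higher and 0.0115% lower in cKO libraries, and 47.3% of genes had a positive log2 fold change. With an unadjusted p below 0.05, 5 of the 10 were higher in cKO libraries (Scg2, Chga, Scg5, Pcsk2 and Cpe) and 0 were lower, where 8.67% of all genes tested had such a p, 4.07% higher and 4.6% lower. The median log2 fold change of the 10 genes was 0.17, beside −0.018 over all genes tested. In 2 of the 10, Scg2 and Scg5, every cKO library lay above every WT library, as in 2.57% of all genes tested, and in 0 every cKO library lay below, as in 2.35%. All members are abundant, and among the 7561 genes of at least 1000 mean normalized reads, a floor chosen after seeing the data, 8.99% were higher at an unadjusted p under 0.05, 5.49% had every cKO library above every WT library, 60.9% had a positive log2 fold change, and the median log2 fold change was 0.040. RNA of whole tissue does not separate more cells of a type from more RNA per cell.

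**Figure D1:**
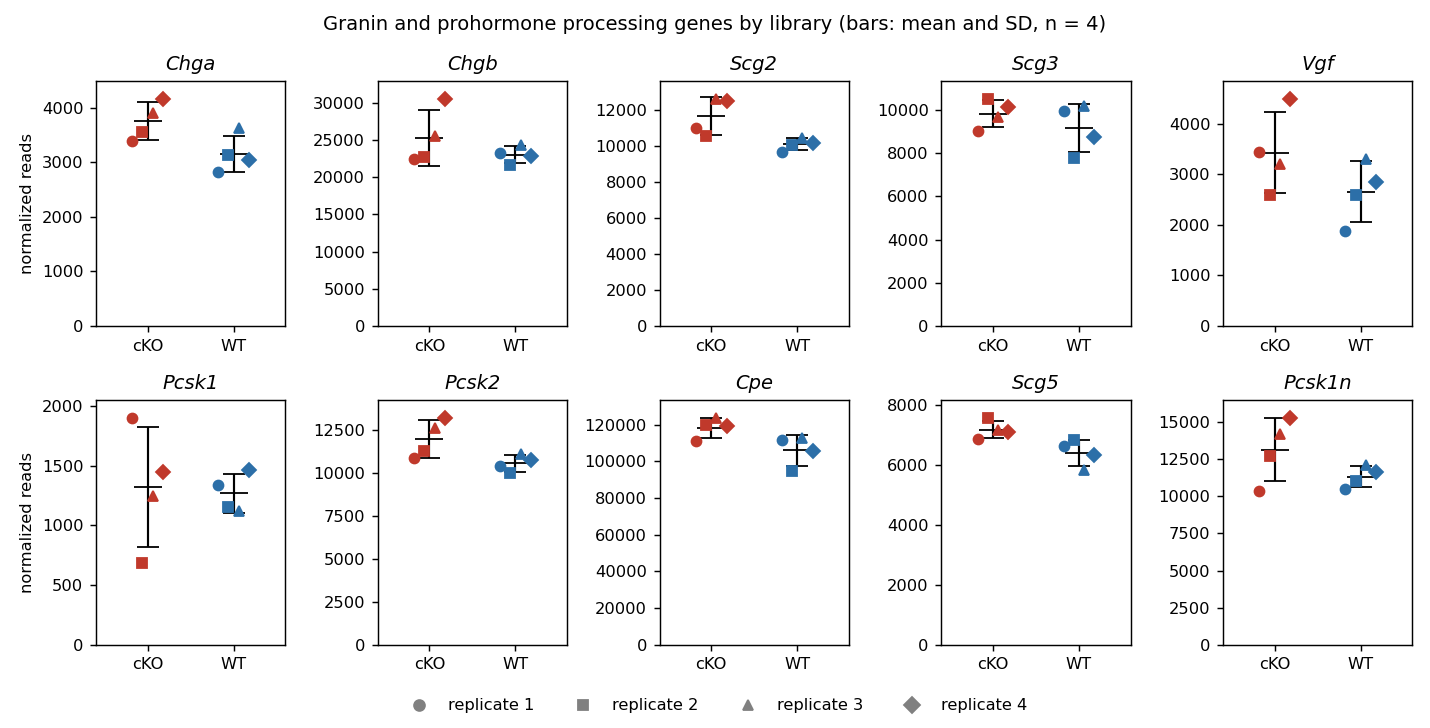
Normalized reads (vertical axes, starting at 0) of the 10 genes in the 4 cKO (red) and 4 WT (blue) libraries, 1 symbol per replicate number, with mean and SD. Scg2 and Scg5 show no overlap between the groups, Vgf and Pcsk1 spread most, and for every gene the highest library is a cKO library.

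The unadjusted count moved with the library left out, and a smaller group also gives less power. The median log2 fold change of the members was 0.16 without cKO replicate 3 and 0.15 without cKO replicate 4, against 0.17 with all libraries. In both of these fits 9 of the 10 genes had a positive log2 fold change. An unadjusted p under 0.05, with a higher value in cKO libraries, was reached by 0 of the 10 genes without cKO replicate 3, where 2.79% of all genes reached it, and by 0 without cKO replicate 4, where 2.92% did. It was reached by 1 without WT replicate 4 (3.26% of all genes), 2 without WT replicate 1 (3.1%) and 3 without WT replicate 2 (3.07%). The count was 4 without cKO replicate 2 (4.75%), 5 without WT replicate 3 (5.8%) and 6 without cKO replicate 1 (5.13%), so the share of all genes also moved with the library left out. The authors' deposited table gives 0 of the 10 an FDR under 0.05, where it calls 0.657% of all genes. That table gives an unadjusted p under 0.05 to 6 of the 10, all with a positive fold change, where 9.11% of all its genes have such a p and 4.43% also a positive fold change, and its lowest FDR among the members is 0.240, for Scg2.

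Among the granins, Scg2, the precursor of secretoneurin, had the narrowest spread between WT libraries. It had 11008, 10562, 12629 and 12515 normalized reads in cKO replicates 1 to 4, against 9665, 10086, 10473 and 10212 in WT replicates 1 to 4. All 4 cKO libraries were above the highest WT library, by little in replicate 2. The log2 fold change was 0.20 (SE 0.076, 95% confidence interval 0.036 to 0.37, limma adjusted p = 0.519).

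Chga encodes chromogranin A, the precursor of several regulatory peptides. It had 3393, 3557, 3904 and 4154 normalized reads in cKO libraries, against 2823, 3125, 3618 and 3044 in WT libraries. The groups overlapped through WT replicate 3, which exceeded 2 cKO libraries, and the log2 fold change was 0.25 (SE 0.096, limma adjusted p = 0.519). Chgb, its more abundant relative, had 22363, 22668, 25523 and 30461 in cKO libraries, against 23291, 21558, 24269 and 22834 in WT libraries. The higher Chgb mean in cKO came mostly from replicate 4, and the log2 fold change was 0.13 (SE 0.098, limma adjusted p = 0.724). Without cKO replicate 4 it was 0.032.

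Scg3, which tethers chromogranin A to cholesterol-rich vesicle membrane, had 9013, 10490, 9650 and 10122 normalized reads in cKO libraries, against 9936, 7783, 10160 and 8762 in WT libraries. The groups overlapped widely, with a log2 fold change of 0.11 (SE 0.094, limma adjusted p = 0.764), and of 0.030 without WT replicate 2. Vgf, a granin-like precursor induced by nerve growth factor and by activity, had 3447, 2579, 3201 and 4481 in cKO libraries, against 1874, 2583, 3309 and 2844 in WT libraries. Its log2 fold change was the highest of the 10 genes, 0.37, with a wide interval of −0.062 to 0.80 (limma adjusted p = 0.609). The extremes of Vgf were cKO replicate 4 and WT replicate 1, 2.39-fold apart, and the fold change was 0.21 without WT replicate 1 and 0.23 without cKO replicate 4.

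Of the convertase genes, Pcsk2 was higher on average in cKO libraries and Pcsk1 showed no direction. Pcsk2 had 10887, 11288, 12637 and 13236 normalized reads in cKO libraries, against 10445, 9990, 11134 and 10740 in WT libraries. A single cKO library, replicate 1, lay below the highest WT library, and the log2 fold change was 0.18 (SE 0.078, limma adjusted p = 0.566). Its antisense neighbours Pcsk2os1 and Pcsk2os2 averaged 155 and 44.5 in cKO libraries and 211 and 40.0 in WT libraries, small beside Pcsk2, and whether the counting used strand was not stated.

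Pcsk1 was the least abundant member and the most variable in cKO libraries. It had 1902, 685, 1244 and 1450 normalized reads in cKO libraries, against 1336, 1153, 1117 and 1467 in WT libraries. The cKO libraries held the highest and the lowest of the 8 values, with a coefficient of variation of 38.2% in cKO libraries and 12.9% in WT libraries. The log2 fold change was −0.026, with an interval of −0.64 to 0.59 (limma adjusted p = 0.986), so wide that no direction can be given. Without cKO replicate 2 it was 0.26 (limma adjusted p = 0.583).

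Cpe, the exopeptidase that follows the convertases, was the most abundant member and ranked 21 by mean normalized reads in the whole table. It had 110952, 119931, 123905 and 119169 normalized reads in cKO libraries, against 111616, 94565, 112805 and 105494 in WT libraries. Of the cKO libraries, 3 were above every WT library, and WT replicate 2 was the lowest by a clear margin. The log2 fold change was 0.16 (SE 0.072, limma adjusted p = 0.574), and 0.11 without WT replicate 2.

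Both genes for partners of the convertases were higher on average in cKO libraries. Scg5, the PCSK2 chaperone, had 6880, 7588, 7165 and 7117 normalized reads in cKO libraries, against 6657, 6834, 5829 and 6336 in WT libraries. The groups did not overlap, though cKO replicate 1 and WT replicate 2 nearly met, and the log2 fold change was 0.17 (SE 0.072, limma adjusted p = 0.565). Pcsk1n had 10401, 12765, 14194 and 15325 in cKO libraries, against 10503, 11070, 12098 and 11662 in WT libraries. Its lowest library was cKO replicate 1 while the other 3 cKO libraries were above every WT library, with a log2 fold change of 0.20 (SE 0.11, limma adjusted p = 0.619). It was 0.31 without cKO replicate 1 and 0.13 without cKO replicate 4.

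Ratios within a library do not depend on the size factor. Scg5 stood at 0.632, 0.672, 0.567 and 0.538 of Pcsk2 in cKO libraries, against 0.637, 0.684, 0.524 and 0.590 in WT libraries. The ranges of the groups overlapped. The ratio of Pcsk2 to Pcsk1 was 5.72, 16.5, 10.2 and 9.13 in cKO libraries, against 7.82, 8.66, 9.96 and 7.32 in WT libraries. The ratio of Pcsk1n to Pcsk1 was 5.47, 18.6, 11.4 and 10.6 in cKO libraries, against 7.86, 9.60, 10.8 and 7.95 in WT libraries. In these last 2 ratios cKO replicates 1 and 2 were the extremes of all 8 libraries.

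Levels of the members spanned more than 2 orders of magnitude per kb of transcript (the longest coding transcript in GENCODE M21). Cpe stood at 55971 ± 2568 normalized reads per kb in cKO libraries and 50128 ± 3941 in WT libraries (SD, n = 4 each). Chgb followed with 9217 ± 1369 in cKO libraries and 8390 ± 411 in WT libraries, and Pcsk1 came last with 262 ± 100 in cKO libraries and 252 ± 32.4 in WT libraries. In WT libraries the order per kb was Cpe, Chgb, Scg5, Pcsk1n, Scg2, Scg3, Pcsk2, Chga, Vgf and Pcsk1. Neighbours in that order overlapped between libraries for Scg5 with Pcsk1n and for Scg2 with Scg3, and the other neighbours did not overlap in WT libraries. In cKO libraries Pcsk1n averaged 6006 per kb and Scg5 5950, with overlap, and Pcsk1n also overlapped with Scg2. The order depends on the transcript taken for each length.

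**Figure D2:**
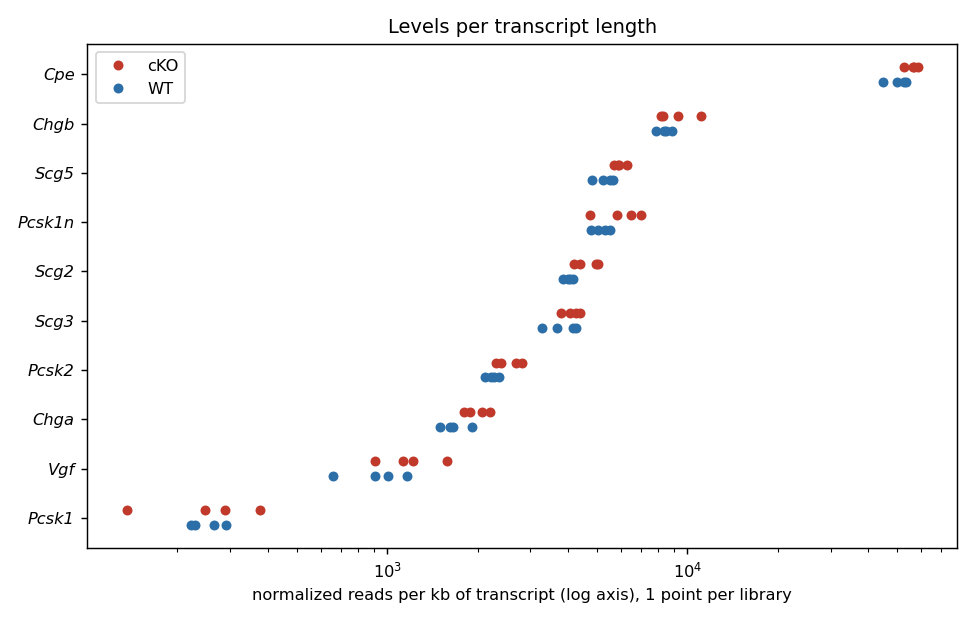
Normalized reads per kb of the longest coding transcript (log axis), 1 point per library, cKO (red) above WT (blue) for each gene, ordered by the WT mean. Cpe stands apart at the top, near 50128 in WT libraries, and Pcsk1 at the bottom, near 252.

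Across libraries the members moved together in some and split in others. The log2 values of each gene, centred on the mean of its 8 libraries, averaged 0.040, −0.064, 0.13 and 0.25 over the 10 genes in cKO replicates 1 to 4, against −0.13, −0.15, −0.0077 and −0.057 in WT replicates 1 to 4. All 10 genes were above their own mean in cKO replicate 4 and 9 in cKO replicate 3, against 2 in WT replicate 1, 1 in WT replicate 2 and 1 in WT replicate 4. They split in cKO replicate 1, with 4 above their mean, in cKO replicate 2, with 6, and in WT replicate 3, with 5. Scg2 and Pcsk2 had the most similar pair of profiles, with a root mean square difference of 0.050 on the log2 scale, and Pcsk1 was farthest from any other member, at 0.40. Among 11832 other genes whose log2 values averaged 8 or more, the profiles nearest to the average of the members were those of Tecpr2, Cmtr1, Ppp2r5b, Arnt2 and Ap3m2, with differences of 0.030 to 0.036 over the 8 libraries. None of these 5 passed limma over all genes (adjusted p from 0.510 to 0.611).

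Pan-neuronal markers ran higher in cKO libraries as well, while the lists for classes of hippocampal neurons were mixed. Positive log2 fold changes were found in 9 of 12 interneuron, 4 of 8 CA1, 3 of 8 CA3 and CA2, and 2 of 9 dentate granule markers. Of the microglia markers, 6 of 7 were positive, as were 5 of 8 astrocyte and 3 of 6 cortical markers. All 7 thalamic markers had a negative log2 fold change (median −0.23), 0 of them at an unadjusted p under 0.05. All 10 pan-neuronal markers had a positive log2 fold change (median 0.21), 6 of them at an unadjusted p under 0.05 and 0 past the adjusted threshold. Of all genes tested, 47.3% had a positive value and 4.07% were higher at such a p. Among genes of at least 1000 mean normalized reads these shares were 60.9% and 8.99%. The summed level of the pan-neuronal markers ranged from 267065 to 307915 normalized reads in cKO libraries and from 234621 to 257914 in WT libraries, without overlap. Snap25, the largest part of that sum, averaged 102045 in cKO libraries and 89642 in WT libraries, with overlap. Taken singly, 3 of the 10 were higher without overlap, as were 2.57% of all genes tested and 5.49% of those of at least 1000 mean normalized reads. With the mean log2 level of these markers as a covariate, an alternative chosen after seeing the data, the median log2 fold change of the 10 members was −0.0018. Of the members 1, Scg5, was higher at an unadjusted p under 0.05, where 3.39% of all genes were. This covariate was itself higher on average in cKO libraries, so it takes up part of any genotype difference. Its effect and that of genotype cannot be told apart here. All 9 oligodendrocyte markers had a negative log2 fold change (median −0.27), with sums from 98037 to 152019 in cKO libraries and from 120385 to 176663 in WT libraries. With that list as the covariate the median of the members was 0.29, with 7 of 10 higher at an unadjusted p under 0.05, where 5.66% of all genes were. All 9 choroid plexus markers also had a negative value, with sums from 10668 to 47653 in cKO libraries and from 5334 to 165416 in WT libraries. With the choroid plexus covariate 2 of the 10, Chga and Scg2, were higher at an unadjusted p under 0.05, where 3.61% of all genes were. The oligodendrocyte and choroid plexus covariates were themselves lower on average in cKO libraries. As with the pan-neuronal covariate, their effects and that of genotype cannot be told apart here. None of the markers in these lists was listed at 0 in all libraries. Of the pituitary and hypothalamic hormone genes, 8 of the 12 listed were in the table, and together they held 130 to 241 normalized reads in cKO libraries and 119 to 146 in WT libraries.

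**Figure D3:**
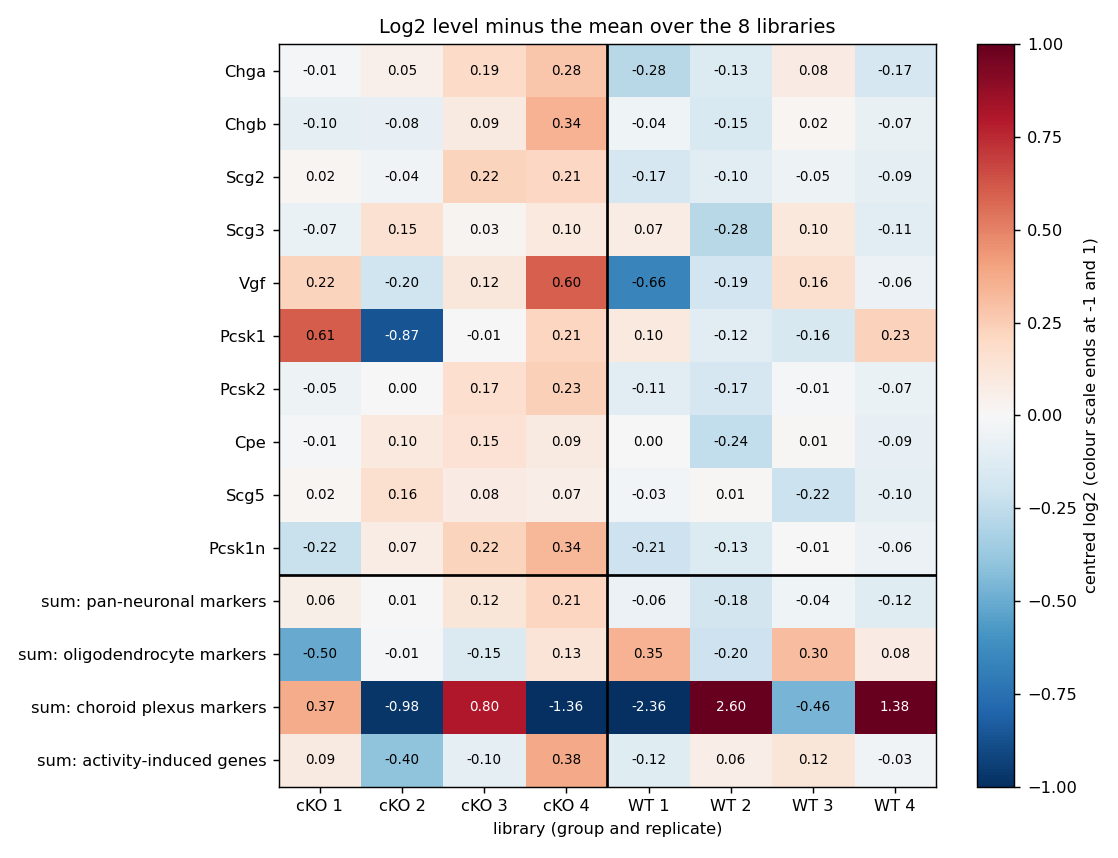
Log2 level of each gene, and of the summed markers of each list, minus its mean over the 8 libraries (cKO left, WT right; colour scale cut at −1 and 1). The average over the 10 genes is highest in cKO replicate 4, 0.25, and lowest in WT replicate 2, −0.15, while Pcsk1 departs from the others in cKO replicates 1 and 2.

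The other enzymes that mature peptides lay on either side of 0. Of 20 listed, 19 were tested, and 0 had an unadjusted p under 0.05 in either direction, with 10 positive log2 fold changes and a median of 0.0080. Of all genes tested, 8.67% had such a p and 47.3% a positive value. Pam, which amidates the ends that CPE exposes, had 5262 ± 600 normalized reads in cKO libraries and 5270 ± 647 in WT libraries (SD, n = 4 each). Furin, the convertase of the constitutive pathway, had 1392 ± 95.2 in cKO libraries and 1330 ± 115 in WT libraries. Cpd, a carboxypeptidase of the trans-Golgi network, had 5596 ± 694 in cKO libraries and 6265 ± 308 in WT libraries (log2 fold change −0.17, SE 0.096, limma adjusted p = 0.626). Log2 fold changes were 0.0080 for Pcsk5, −0.27 for Pcsk6, 0.16 for Pcsk7 and −0.052 for Qpct, which forms pyroglutamate ends, and none of these passed limma over all genes.

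Genes for the making and release of dense-core vesicles had a median log2 fold change of 0.13. Of 34 listed, 33 were tested and 27 had a positive log2 fold change, as did 47.3% of all genes tested and 60.9% of the genes of at least 1000 mean normalized reads. At an unadjusted p under 0.05, Ptprn, Vps52 and Rab2b were higher and Slc18a2, the vesicular monoamine transporter, was lower, while 0 passed the adjusted threshold. These 3 of 33 stand beside 4.07% of all genes tested and 8.99% of the genes of at least 1000 mean normalized reads. Ptprn, a vesicle membrane protein and islet autoantigen, had 14833, 14051, 14821 and 16943 normalized reads in cKO libraries, against 11701, 12620, 14964 and 13355 in WT libraries. Only WT replicate 3 reached the range of the cKO libraries, and the log2 fold change was 0.21 (SE 0.089, limma adjusted p = 0.565). Its paralog Ptprn2 had 7479 ± 1228 in cKO libraries and 6243 ± 1208 in WT libraries (limma adjusted p = 0.628). Rab2b, a small GTPase, lay outside the genes named by rule, was picked out once its values were known, and had 1734, 1670, 1636 and 1839 in cKO libraries against 1036, 1341, 818 and 1084 in WT libraries. Its groups did not overlap (log2 fold change 0.70, SE 0.13, limma adjusted p = 0.291). Cadps and Cadps2, which prime vesicles for release, had log2 fold changes of 0.021 and 0.086, and Syt4, Rab27b, Hid1 and Resp18 had 0.036, 0.0063, 0.16 and 0.016.

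**Figure D4:**
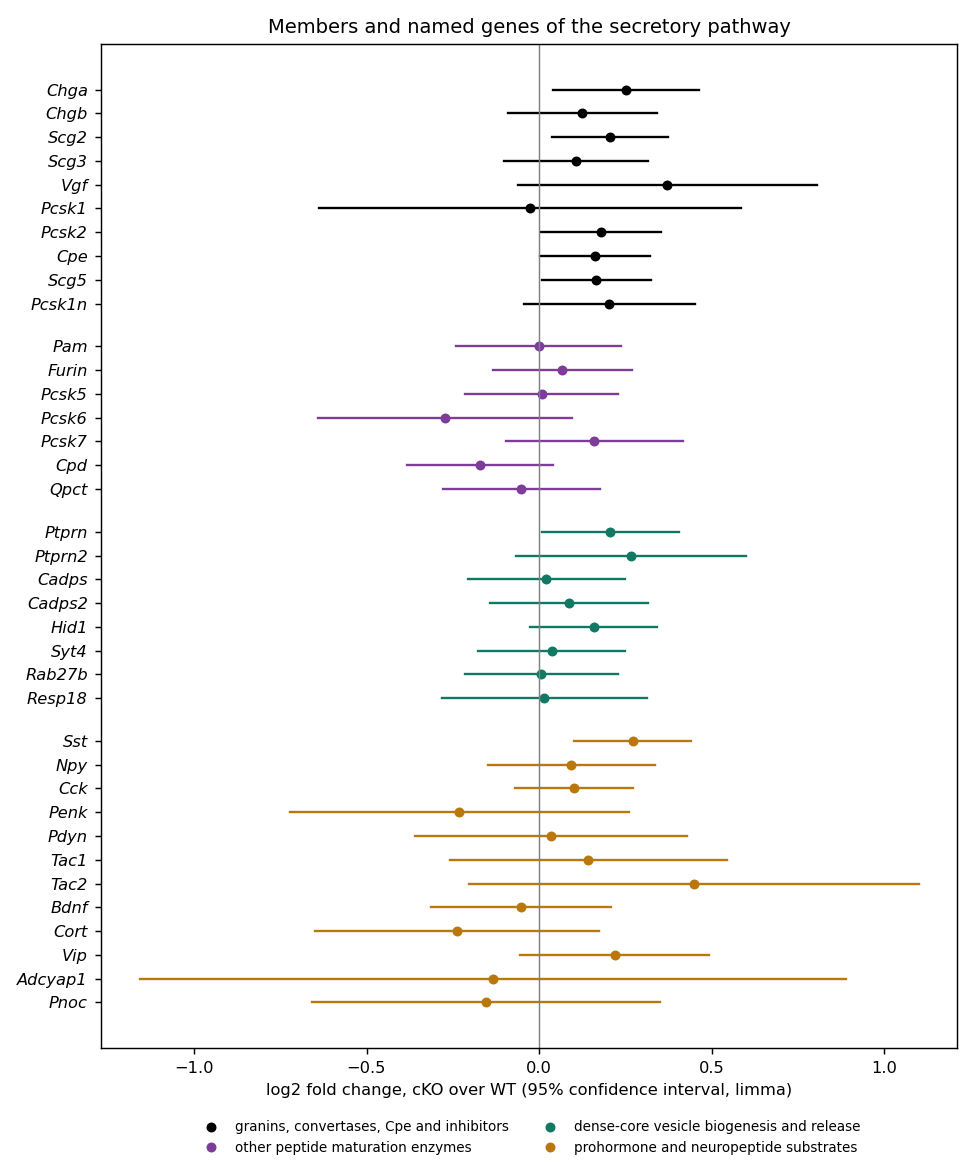
Log2 fold change of cKO over WT with its 95% confidence interval (limma) for the 10 genes and for the named genes of 3 related lists. The intervals of Chga, Scg2, Pcsk2, Cpe, Scg5, Ptprn and Sst lie above 0 before adjustment, and none of the genes shown passed the test over all genes.

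Prohormones, the substrates of this machinery, had no common direction. Of 36 listed, 33 were tested, 16 had a positive log2 fold change and the median was −0.052. Unlike the members, some of these genes had few reads. Gal averaged 8.91 normalized reads in cKO libraries and 15.8 in WT libraries, and Cartpt 53.8 and 82.5. At an unadjusted p under 0.05, Sst was higher, and Nts and Cartpt were lower, where 4.07% of all genes tested were higher and 4.6% lower. Sst, the somatostatin precursor of an interneuron class, had 6611, 5786, 6161 and 6961 normalized reads in cKO libraries, against 4909, 5397, 5430 and 5373 in WT libraries. The groups did not overlap (log2 fold change 0.27, SE 0.077, limma adjusted p = 0.496). Cck, the cholecystokinin precursor, had 6548 ± 331 in cKO libraries and 6115 ± 515 in WT libraries, and Npy had a log2 fold change of 0.094. Bdnf, a neurotrophin stored in dense-core vesicles, had 2613 ± 442 in cKO libraries and 2681 ± 142 in WT libraries. Log2 fold changes were −0.23 for Penk, 0.035 for Pdyn, 0.14 for Tac1, 0.45 for Tac2, −0.24 for Cort, 0.22 for Vip, −0.13 for Adcyap1 and −0.15 for Pnoc. None of these passed limma over all genes.

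Genes induced by activity, among which Vgf, Scg2 and Pcsk1 are often counted, gave no common direction. All 25 listed were tested, 13 had a positive log2 fold change and the median was 0.0022. At an unadjusted p under 0.05, Per1 was higher, and Npas4, Btg2 and Inhba were lower, with 0 past the adjusted threshold. Of all genes tested, 4.07% were higher and 4.6% lower at such a p. Fos had 511, 224, 364 and 818 normalized reads in cKO libraries, against 519, 531, 712 and 567 in WT libraries. The lowest library for Fos, cKO replicate 2, was also the lowest for Pcsk1, Arc and Egr1, and its highest, cKO replicate 4, was also the highest for Vgf and Egr1. Npas4 had 359 ± 160 in cKO libraries and 697 ± 153 in WT libraries (log2 fold change −1.04, limma adjusted p = 0.496). Inhba had 334 ± 80.2 in cKO libraries and 616 ± 109 in WT libraries (log2 fold change −0.90, limma adjusted p = 0.330). Per1 had 2567 ± 231 in cKO libraries and 2010 ± 269 in WT libraries. The groups did not overlap for Inhba, Btg2 and Per1. Of all genes tested, 2.57% were higher in cKO libraries without overlap and 2.35% lower. Log2 fold changes were −0.36 for Arc, 0.15 for Junb and −0.059 for Nr4a1. Of 16 genes for the repressor REST, which holds neuronal genes such as Chga silent outside neurons, its partners and CREB regulators, Kdm1a was higher and Rest lower at an unadjusted p under 0.05, with 0 past the adjusted threshold. Rest had 352, 401, 265 and 297 in cKO libraries, against 380, 452, 412 and 411 in WT libraries, with overlap (log2 fold change −0.35, SE 0.15, limma adjusted p = 0.553). Creb1 spread from 800 to 2800 in cKO libraries and from 837 to 2948 in WT libraries, and log2 fold changes were 0.010 for Crem and 0.10 for Crtc1.

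**Figure D5:**
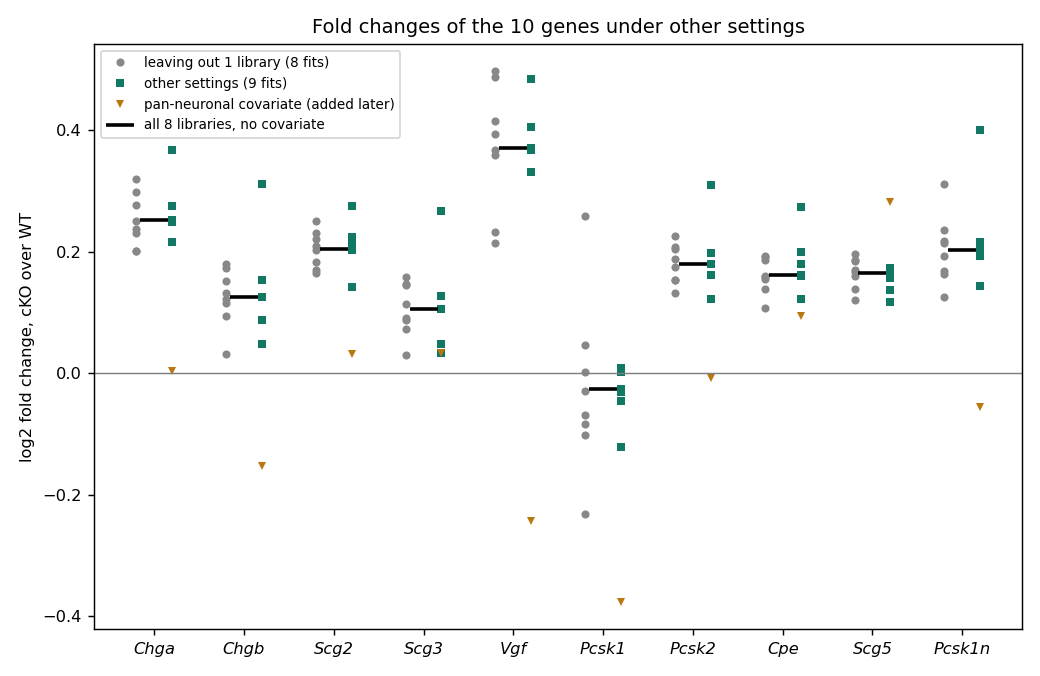
Log2 fold change of cKO over WT for each of the 10 genes with all libraries and no covariate (black bars), on leaving out 1 library at a time (grey), under the other settings (green) and with the pan-neuronal covariate (orange). Pcsk1 lies on either side of 0, and the pan-neuronal covariate takes Chgb, Vgf, Pcsk2 and Pcsk1n below 0.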

How the data were processed

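The table deposited by the authors holds 34094 genes. Each library has a log2 column, and the authors' own comparison of cKO with WT adds a log2 fold change, a p-value and an FDR. The tools STAR, StringTie and DESeq2 and the build mm9 are named, per the submitters' processing notes, with versions, roles and annotation not given in the sources used here. For 100% of values, 2 to the power of the deposited log2 value, minus 1, was a whole multiple of 1 step per library (tolerance 0.001 reads), so reads and depths were recovered from it. Its 2 columns of group means were left aside.

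Genes reaching 1 normalized read in 4 or more libraries, 26135 in all, were fitted with limma 3.58.1 in R 4.3.3 (mean-variance trend, robust, no covariate, pseudocount 1), and p-values were adjusted by Benjamini-Hochberg over all of them, with a threshold of 0.05. limma-voom used trimmed mean factors computed on the recovered reads. The fit was tested on simulated data. Alternatives were quantile normalization, no filter, a minimum of 10 normalized reads, a pseudocount of 0.1, array weights, limma-voom, a replicate block, marker covariates and leaving out each library.

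The members, lists and tests were chosen with earlier results of these data known. Named genes are the members, a fixed part of each list, any list gene past the test and the 5 genes nearest in profile. Of the listed genes, those whose symbols are not in the table are not analysed here. Lengths and coding sequences are from GENCODE M21, promoters from RefSeq. These are on GRCm38, not on the build of the files, and serve only for sequences and lengths. Figures were drawn with matplotlib 3.10.9.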

Additional observations from a re-analysis of the deposited data

How the results depend on the processing

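None of the 10 members passed limma over all genes in any of the 18 alternatives, with lowest adjusted p values per alternative between 0.288 and 0.786. The number of genes past the threshold, 5, was 8 with array weights, 3 with the pan-neuronal covariate and 4 to 7 on leaving out a library. The number of members with an unadjusted p under 0.05, 5, stands beside 8.67% of all genes tested. It was 2 with quantile normalization (7.87% of all genes), 2 with the choroid plexus covariate (7.71%) and 1 with the pan-neuronal covariate (8.51%). With the oligodendrocyte covariate the count was 7 (11.8%), and on leaving out a library it was 0 to 6 (6.33% to 11.3%). The number of members without overlap between groups, 2, was 1 with quantile normalization and 2 to 5 on leaving out a library, where fewer libraries make separation easier. With all 8 libraries, every cKO library lay above every WT library in 2.57% of all genes tested. Shares for the other settings are not given here. The median log2 fold change of the members, 0.17, was 0.29 with the oligodendrocyte covariate, −0.0018 with the pan-neuronal covariate and 0.15 to 0.21 on leaving out a library. With the pan-neuronal covariate the fold changes of Chgb (−0.15), Vgf (−0.24), Pcsk2 (−0.0078) and Pcsk1n (−0.055) changed sign. That of Pcsk1 did so with array weights (0.0028) and the choroid plexus covariate (0.0087), and was −0.23 to 0.26 on leaving out a library, positive without WT replicate 1 (0.0019), WT replicate 4 (0.047) or cKO replicate 2 (0.26). The cause was not tested. No filter, a stricter filter, a pseudocount of 0.1 and limma-voom changed no direction of a member.

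The values showed no pairing by replicate number. Deviations of same-numbered libraries from their group means correlated at −0.040 to 0.029, and 3 of 8 libraries were closest to their own number. This check cannot settle whether animals or preparations were paired. With the replicate block 2 genes passed the threshold, and 5 members had an unadjusted p under 0.05, as did 9.32% of all genes tested.

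With all 8 libraries the intervals of the members were narrowest for Scg5, 0.0073 to 0.32 (log2), and widest for Pcsk1, −0.64 to 0.59. The lowest value of any member was 685 normalized reads, for Pcsk1 in cKO replicate 2, and the part of depth in these widths was not tested.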
